A study of Mus musculus with 12 samples.

Results

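The 5 chemoattractant receptors, Ccr1, Ccr2, Ccrl2, Cxcr4 and Cmklr1, were followed in bone marrow derived macrophages (BMDMs) of mice. They were chosen by symbol, as named receptors of the chemokine and chemerin families without Cx3cr1, and make up 5 of the 12960 genes with counts. All 5 passed the filter on low counts and were among the 10822 genes tested. WT BMDMs and BMDMs of AMPKβ1-/- mice received vehicle (DMSO, 0.1%) or 10 µM PF-06409577 (PF), a small molecule that activates AMPK complexes holding the β1 subunit, for 6 h. Each of the 4 groups held 3 libraries. The knockout was whole-body, so that marrow cells lacked AMPKβ1 before and during their differentiation in L929 medium, a source of M-CSF, and the β2 subunit was left in place. Neither the age of the donor mice nor the number of mice behind the 3 libraries of a group is given in the sources used here, so p-values measure the spread between libraries, which may be technical.

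Chemokine receptors are G protein coupled receptors with a bundle of membrane-spanning helices. When a chemokine binds, they activate inhibitory (Gi) G proteins, whose βγ subunits switch on phosphoinositide 3-kinase γ, phospholipase Cβ and Rac, and the cell moves up the gradient of the ligand. G protein coupled receptor kinases and β-arrestins then switch the receptor off and carry it inside the cell, while RGS proteins shorten the G protein signal. Ccr2, the receptor of Ccl2, lets inflammatory monocytes leave the marrow and enter inflamed tissue, and Ccr1 binds inflammatory chemokines such as Ccl3 and Ccl5. Cxcr4 binds Cxcl12 and holds haematopoietic cells in the marrow. Cmklr1 is the signalling receptor of chemerin, and Ccrl2 is an atypical receptor that binds chemerin and presents it to other cells without signalling through G proteins.

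Prkab1, which encodes AMPKβ1, was read first as a check of the genotype. Its normalized CPM (counts scaled to the size of the library) were 43.4, 44.2 and 45.3 in WT cells with vehicle against 8.39, 7.70 and 6.05 in AMPKβ1-/- cells. The log2 difference was −2.57 (SE 0.12, adjusted p = 8.85e-09). With PF they were 41.9, 37.3 and 37.7 in WT and 9.41, 9.42 and 7.90 in AMPKβ1-/- cells. The libraries held between 8935609 and 14358180 counts, so that 1 count was worth 0.0652 to 0.107 CPM. The 10 macrophage markers were all present, with a summed level of 26120 to 30948 CPM over the 12 libraries. Granulocyte markers summed to at most 1.39 CPM, lymphoid markers to at most 2.99 CPM, mast cell and basophil markers to at most 5.31 CPM, dendritic cell markers to between 5.56 and 9.84 CPM and fibroblast and stromal markers to between 1.75 and 12.2 CPM. In bulk RNA of this kind, fewer cells of a type and less RNA per cell cannot be told apart. Counts of the libraries also followed base composition to different degrees. For each 10 percentage points of exonic GC content, the deviation of a gene's log2 CPM from its mean over the libraries changed by 0.37 to 0.75 in WT vehicle, −0.055 to 0.39 in WT PF, −0.37 to −0.11 in AMPKβ1-/- vehicle and −0.54 to −0.35 in AMPKβ1-/- PF libraries. These slopes did not overlap between the genotypes, and in WT cells those with vehicle and with PF overlapped only slightly. A second fit was therefore run, in which every library was first corrected for its trend in GC content and in the length of genes, and its values are given beside the calls of the members. Because the slopes went with genotype, this correction may also remove or add differences between the genotypes in genes of low or high GC content. The data cannot tell these apart, and neither fit was taken as the truer one.

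On the mouse genome (GRCm38, GENCODE M21), Ccr1 (ENSMUSG00000025804) lies on chromosome 9 at 123962124 to 123968692 on the minus strand and Ccr2 (ENSMUSG00000049103) at 124101950 to 124113557 on the plus strand, with Ccr3 between them. Ccrl2 (ENSMUSG00000043953) lies on the same chromosome at 111054486 to 111057519 on the minus strand. Cxcr4 (ENSMUSG00000045382) is on chromosome 1 at 128588199 to 128592293 and Cmklr1 (ENSMUSG00000042190) on chromosome 5 at 113612354 to 113650426, both on the minus strand. Cmklr1 lies 2363 kb from Prkab1, the deleted gene, and its span, introns included, overlaps that of the antisense gene Gm15736. Whether their exons overlap was not examined, and whether the counting used strand is not given in the sources used here. If exons do overlap, reads there may come from either gene. The exons held 39.1% GC in Ccr1 and 39.2% in Ccr2, against 49.3% in Ccrl2, 48.2% in Cxcr4 and 54.9% in Cmklr1. Of the 31-base words in the transcripts, 3.41% of those of Ccr2 also occurred in another gene, and for the other members the share was at most 0.642%.

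The promoter windows of the 3 receptors whose libraries with and without PF did not overlap in WT cells are shown from RefSeq (GRCm38.p6), each from 250 bases before to 50 bases after a start of transcription, 5′ to 3′ on the strand of the gene. Capitals mark the matches found in a search of both strands for 7 motifs. Ccrl2 has 3 windows in the RefSeq table, and the one shown (chr9:111057469-111057768, minus strand) held an NF-κB match whose first base was at −56, while the other two held none of the motifs. The Cxcr4 window (chr1:128592250-128592549, minus strand) held a pair of overlapping matches to the TATA box (TATAAA) at −32 and −30, and the Cmklr1 window (chr5:113643554-113643853, minus strand) held an E-box (CACGTG) at −145.
Ccrl2: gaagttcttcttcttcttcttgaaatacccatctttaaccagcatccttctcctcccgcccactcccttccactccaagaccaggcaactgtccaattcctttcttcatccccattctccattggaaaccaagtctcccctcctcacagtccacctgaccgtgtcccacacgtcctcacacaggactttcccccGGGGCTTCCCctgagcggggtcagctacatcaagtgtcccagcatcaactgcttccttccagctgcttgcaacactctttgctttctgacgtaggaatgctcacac
Cxcr4: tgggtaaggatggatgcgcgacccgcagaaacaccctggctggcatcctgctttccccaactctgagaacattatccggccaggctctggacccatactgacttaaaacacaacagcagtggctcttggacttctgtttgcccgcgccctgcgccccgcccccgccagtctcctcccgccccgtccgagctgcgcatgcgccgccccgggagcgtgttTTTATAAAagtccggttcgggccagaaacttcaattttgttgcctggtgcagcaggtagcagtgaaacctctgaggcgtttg
Cmklr1: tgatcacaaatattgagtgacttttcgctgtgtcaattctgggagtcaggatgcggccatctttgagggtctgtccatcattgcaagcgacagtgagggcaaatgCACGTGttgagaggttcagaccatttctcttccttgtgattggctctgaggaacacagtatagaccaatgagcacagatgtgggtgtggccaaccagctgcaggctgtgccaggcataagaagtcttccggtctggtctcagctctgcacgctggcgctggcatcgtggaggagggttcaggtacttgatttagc
Of the 32851 promoter windows of this length, 8.46% held the NF-κB motif, 13.6% TATAAA and 7.15% CACGTG. The NF-κB motif was also found in the Ccr1 window at −74, and the Ccr2 window held none of the motifs. No window of the 5 receptors held the motifs of PU.1 (GAGGAAGT, in 3.20% of all windows), AP-1 (TGANTCA, 7.81%), the sterol response element (TCACNCCAC, 1.24%) or the cyclic AMP response element (TGACGTCA, 1.79%). The windows of Ccr1 and Ccr2 held 44.0% and 38.0% GC, those shown for Ccrl2, Cxcr4 and Cmklr1 53.0%, 59.3% and 51.7%, and the median over all windows was 52.7%. These matches describe the letters only and were not tested as binding sites.

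Cxcr4 was the most abundant of the 5 in every group. Per kb of exons it reached 128 ± 5.49 CPM (SD, n = 3) in WT vehicle cells, followed by Ccrl2 (5.36 ± 0.346), Cmklr1 (1.79 ± 0.427), Ccr1 (0.773 ± 0.313) and Ccr2 (0.386 ± 0.137). Only Ccr1 and Ccr2 overlapped between libraries among neighbours of this order. With PF the order in WT cells was the same, with no overlap between neighbours. In AMPKβ1-/- vehicle cells Ccr2 (1.32 ± 0.264 CPM per kb) stood above Ccr1 (0.523 ± 0.122), and no neighbours overlapped. In AMPKβ1-/- cells with PF, Ccr2 (1.38 ± 0.105) and Cmklr1 (1.35 ± 0.135) overlapped, behind Ccrl2. Ccr1 rested on only 12 to 28 counts per library and Ccr2 on 14 to 39 counts in WT and 76 to 148 in AMPKβ1-/- libraries, so both were measured with wide errors.

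**Figure D1:**
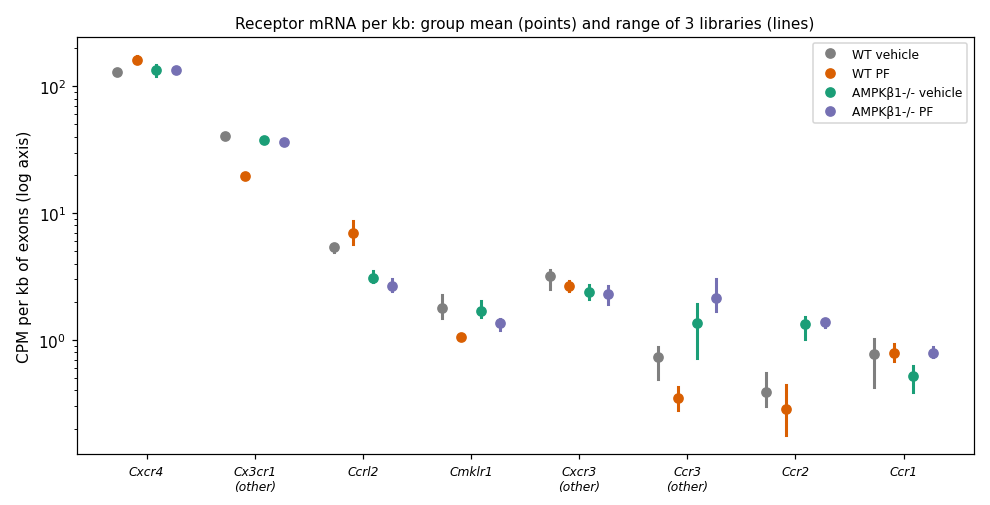
Level of the 5 receptors and of Cx3cr1, Cxcr3 and Ccr3, in CPM per kb of exons on a log axis. Points are group means and lines run from the lowest to the highest of 3 libraries. Cxcr4 stands above 120 CPM per kb in every library, while Ccr1 and Ccr2 stay below 2.

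The first question was which of these receptors responded to PF in WT macrophages. Cxcr4 rose and Cmklr1 fell, each by less than 2-fold, while Ccr1, Ccr2 and Ccrl2 did not pass the test. The test called 2 of the 5 members, where it called 15.9% of all genes, and neither passed the threshold of a differentially expressed gene (DEG: an adjusted p below 0.05 with a change of more than 0.8 on the log2 scale in either direction), which 1.52% of all genes did. The libraries of vehicle and PF did not overlap for 3 of the 5 members and for 32.2% of all genes. All adjusted p-values are from edgeR's quasi-likelihood test with Benjamini-Hochberg adjustment over the 10822 genes.

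Cxcr4 read 235, 241 and 221 CPM in the WT vehicle libraries and 276, 279 and 315 CPM in the WT PF libraries. Every PF library stood above every vehicle library, with group means of 232 ± 9.93 and 290 ± 21.4 CPM (SD, n = 3). Cxcr4 thus rose by 0.32 on the log2 scale (SE 0.082, 95% interval 0.15 to 0.49, adjusted p = 0.0199). Corrected for GC content and length, the change was 0.18 (adjusted p = 0.0776), and it did not pass when the fit held the WT libraries alone (0.34, adjusted p = 0.0619). The call was also lost when library 1 or 3 of WT vehicle, or library 2 or 3 of WT PF, was left out, with adjusted p between 0.0514 and 0.104.

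Cmklr1, the receptor of chemerin, read 5.45, 5.08 and 7.76 CPM with vehicle and 3.77, 3.56 and 3.54 CPM with PF. The PF libraries lay close together and below every vehicle library, and WT vehicle library 3 stood apart as the highest. Its log2 change was −0.75 (SE 0.20, 95% interval −1.18 to −0.32), and the fall passed the test (adjusted p = 0.0247). Leaving out that library, the change was −0.54 (adjusted p = 0.106), and without WT PF library 2 or 3 it was −0.74 (adjusted p = 0.0802) or −0.72 (adjusted p = 0.0984). Corrected for GC content and length it was −0.55 (adjusted p = 0.0874), and with the WT libraries alone −0.73 (adjusted p = 0.0809).

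Ccrl2, which shares the ligand chemerin with Cmklr1, read 14.6, 12.9 and 14.2 CPM with vehicle and 22.6, 17.5 and 14.7 CPM with PF. The groups did not overlap, but the lowest PF library was almost level with the highest vehicle library. The log2 fold change was 0.39 (SE 0.16, 95% interval 0.056 to 0.72), with an adjusted p of 0.0923. The change passed only where libraries were scaled by their size alone (0.46, adjusted p = 0.0492).

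In WT cells Ccr2 read 2.03, 2.12 and 3.68 CPM without PF and 1.20, 1.59 and 3.0 CPM with it. In both groups 1 library stood above the others and the groups overlapped. The log2 fold change was −0.41 (SE 0.33, adjusted p = 0.383). Ccr1 read 2.89, 2.49 and 1.19 CPM with vehicle and 2.14, 2.62 and 1.92 CPM with PF. Its log2 fold change was 0.020, with a 95% interval from −0.61 to 0.65 (adjusted p = 0.968), so changes within this interval were not excluded.

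**Figure D2:**
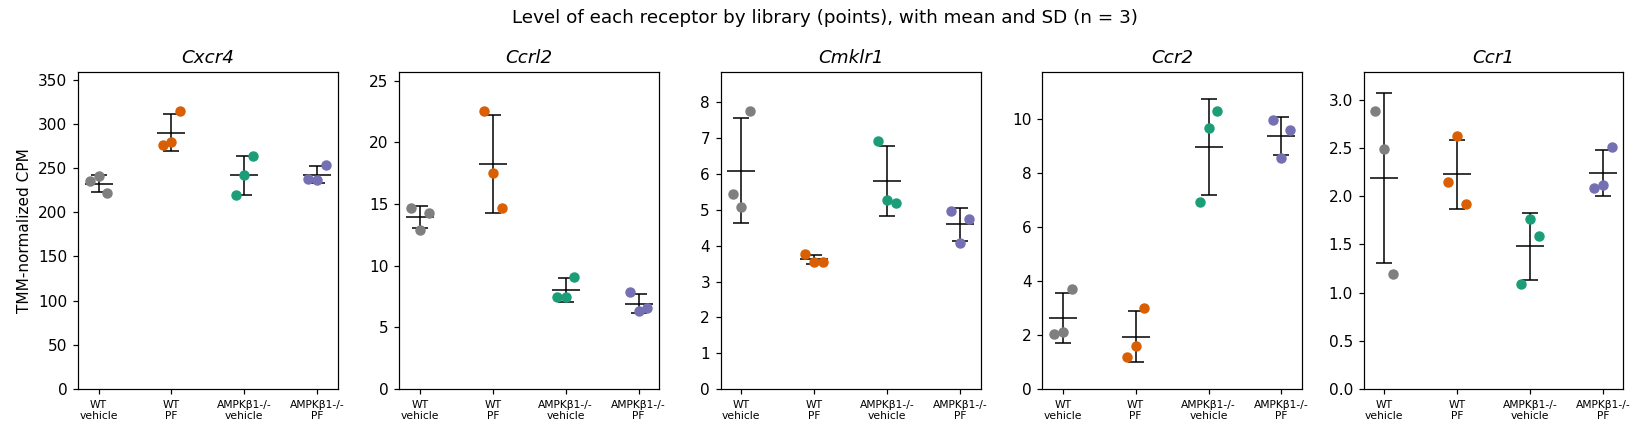
Normalized CPM of each receptor by library (points) in the 4 groups, with the mean and SD of 3 libraries (bars), on linear axes that start at 0. Cxcr4 is highest and Cmklr1 lowest in the WT PF group, Ccrl2 is lower and Ccr2 higher in all 6 AMPKβ1-/- libraries than in any WT library, and the Ccr1 groups overlap in WT.

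The next question was whether PF changed these receptors in cells without AMPKβ1. None of the 5 was called by edgeR, DESeq2 or limma-voom, and none had an unadjusted p below 0.05 in the edgeR test. Few genes passed in this contrast at all, 0.0554% by adjusted p and 4.98% by an unadjusted p below 0.05. The libraries did not overlap for 2 members, Ccr1 and Cmklr1, and for 14.5% of all genes.

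In AMPKβ1-/- cells Cxcr4 read 220, 242 and 264 CPM with vehicle and 237, 237 and 254 CPM with PF. The PF libraries fell inside the range of the vehicle libraries, with a log2 fold change of 0.0038 (SE 0.082, 95% interval −0.17 to 0.18). Cmklr1 read 6.93, 5.28 and 5.20 CPM with vehicle and 4.97, 4.08 and 4.74 CPM with PF. Its PF libraries were again the lower ones, with a log2 fold change of −0.34 (SE 0.19, 95% interval −0.75 to 0.077, unadjusted p = 0.104 and adjusted p = 0.982). Ccrl2 read 7.48, 7.50 and 9.12 CPM with vehicle and 7.84, 6.36 and 6.60 CPM with PF (log2 fold change −0.20, SE 0.18). Ccr1 read 1.09, 1.76 and 1.59 CPM with vehicle and 2.09, 2.12 and 2.51 CPM with PF, all higher with PF (log2 fold change 0.57, SE 0.31, unadjusted p = 0.0823 and adjusted p = 0.982). Ccr2 read 6.93, 9.65 and 10.3 CPM with vehicle and 9.93, 8.56 and 9.58 CPM with PF, and these groups overlapped (log2 fold change 0.061, SE 0.23).

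A call in WT cells and none in AMPKβ1-/- cells does not show that the responses differed, so the difference itself was tested as an interaction of genotype and PF (WT minus AMPKβ1-/-). No member was called, where 0.416% of all genes were. An unadjusted p below 0.05 was found for 2 members, Cxcr4 and Ccrl2, and for 14.3% of all genes. For Cxcr4 the responses differed by 0.32 on the log2 scale (SE 0.12, 95% interval 0.072 to 0.56, unadjusted p = 0.0145, adjusted p = 0.238). For Ccrl2 they differed by 0.59 (SE 0.24, 95% interval 0.092 to 1.09, unadjusted p = 0.0232, adjusted p = 0.279). The difference was −0.41 for Cmklr1 (adjusted p = 0.516), −0.55 for Ccr1 (adjusted p = 0.570) and −0.47 for Ccr2 (adjusted p = 0.611), with intervals that held 0. For comparison, Cx3cr1, the fractalkine receptor, fell by 1.05 on the log2 scale with PF in WT cells (SE 0.067, adjusted p = 6.6e-07), read −0.057 (SE 0.066, adjusted p = 0.982) in AMPKβ1-/- cells and passed the interaction test (−0.995, SE 0.094, adjusted p = 0.000174).

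The genotypes were then compared, first with vehicle. Ccr2 was higher and Ccrl2 lower in AMPKβ1-/- than in WT BMDMs. Both passed the DEG threshold, Ccrl2 only just, and neither passed it when corrected for GC content and length. The test called 2 of the 5 members, both as DEGs, where it called 59.7% of all genes and 17.8% as DEGs. The members are too few for their shares to be set against those of all genes. Libraries of the genotypes did not overlap for the same 2 members and for 62.9% of all genes. Genotype was compared between cultures of different mice, and any difference between the marrows beyond AMPKβ1 cannot be told apart from it.

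Ccrl2 read between 12.9 and 14.6 CPM in WT and between 7.48 and 9.12 CPM in AMPKβ1-/- vehicle libraries, with means of 13.9 ± 0.900 and 8.03 ± 0.943 CPM (SD, n = 3). The log2 difference was −0.80 (SE 0.17, 95% interval −1.16 to −0.45, adjusted p = 0.000908). Corrected for GC content and length it was −0.72 (adjusted p = 0.00169), and over the alternatives it lay between −0.89 and −0.59. With PF in both genotypes, the AMPKβ1-/- libraries read 6.36 to 7.84 CPM against 14.7 to 22.6 CPM in WT, a log2 difference of −1.39 (SE 0.17, adjusted p = 1.6e-05), and of −1.27 (adjusted p = 5.06e-06) with the correction. Ccrl2 was the member whose genotype difference kept its call in both treatments under every alternative run.

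Ccr2 read 2.61 ± 0.928 CPM in WT and 8.96 ± 1.78 CPM in AMPKβ1-/- vehicle cells (SD, n = 3), and every AMPKβ1-/- library stood above every WT library. The log2 difference was 1.77 (SE 0.28, 95% interval 1.19 to 2.36, adjusted p = 0.00014). With PF it was 2.24 (SE 0.28, adjusted p = 2.48e-05), from 1.93 ± 0.947 CPM in WT to 9.36 ± 0.713 CPM in AMPKβ1-/- cells. The difference was much smaller corrected for GC content and length, at 0.34 with vehicle (adjusted p = 0.246) and 0.82 with PF (adjusted p = 0.00696). Ccr2 and Ccr1 are the 2 members of lowest GC content.

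The summed level of monocyte markers was also higher in the AMPKβ1-/- libraries, through part of the list. The 9 of 10 listed monocyte markers that had counts, which do not include Ccr2, summed to 8.45 to 13.04 CPM in WT vehicle and 17.4 to 21.2 CPM in AMPKβ1-/- vehicle libraries, and to 9.60 to 12.001 and 14.1 to 18.2 CPM with PF. Among the 4 that passed the filter, 3 were called higher in AMPKβ1-/- vehicle cells, as were 29.7% of all genes. Named after their values were seen, these were Fn1 (log2 difference 1.33, adjusted p = 0.00837), Vcan (1.79, adjusted p = 0.000485) and Ms4a4c (0.68, adjusted p = 0.0447), which encode matrix proteins and a membrane protein. F13a1, the other, read −0.098 (adjusted p = 0.875). Plac8, under the filter, averaged 0.249 ± 0.0324 CPM in AMPKβ1-/- against 0.628 ± 0.0270 CPM in WT vehicle cells (SD, n = 3), with no overlap. Ly6c2, a defining marker of inflammatory monocytes, averaged at most 0.165 CPM in a group, under the floor of 3 counts, and Ly6c1 had no row in the counts. Dendritic cell markers summed to 9.16 to 9.84 CPM in WT and 5.56 to 6.46 CPM in AMPKβ1-/- vehicle libraries. With PF these sums were 7.46 to 8.89 and 5.58 to 7.23 CPM. Most of each sum came from Itgax. With vehicle Itgax averaged 7.50 ± 0.303 CPM in WT and 3.92 ± 0.670 CPM in AMPKβ1-/- cells (log2 difference −0.95, adjusted p = 0.000615). Batf3, the other of the 2 tested, averaged 0.839 ± 0.334 and 0.947 ± 0.536 CPM in these cells (SD, n = 3). Fibroblast and stromal markers summed to 1.75 to 3.58 CPM in WT and 3.52 to 12.2 CPM in AMPKβ1-/- vehicle libraries, which overlap, and to 1.77 to 1.89 and 3.05 to 3.22 CPM with PF. The part of GC content or of these cell types in the Ccr2 and Ccrl2 differences was not tested.

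Cxcr4 did not differ between genotypes with vehicle beyond the spread of the libraries (log2 difference 0.058, SE 0.082, 95% interval −0.12 to 0.23, adjusted p = 0.554). With libraries scaled by size alone it read 0.27 higher in AMPKβ1-/- cells (adjusted p = 0.0189), a scaling that moved the median of all genes by 0.21. Cmklr1 read −0.073 (SE 0.19, adjusted p = 0.758). Ccr1 read 0.54 lower in AMPKβ1-/- cells (log2 difference −0.54, SE 0.32, adjusted p = 0.151). Without WT vehicle library 3, the lowest of its group, it was called at −0.83 (adjusted p = 0.0209), and corrected for GC content and length at −1.78 (adjusted p = 0.000627). Before that correction the Ccr1 libraries of the genotypes overlapped, each with 12 to 27 counts.

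With PF in both genotypes, 3 of the 5 members were called, Ccr2 and Ccrl2 as described, both as DEGs, and Cxcr4, against 47.1% of all genes called and 14.3% as DEGs. The genotypes did not overlap for 4 members and for 59.9% of all genes. Cxcr4 was lower in AMPKβ1-/- cells (242 ± 9.62 against 290 ± 21.4 CPM, log2 difference −0.26, SE 0.081, adjusted p = 0.0166). This comparison used the same WT PF libraries as the PF response in WT cells, so the 2 results are not independent. The Cxcr4 call was lost corrected for GC content and length (−0.13, adjusted p = 0.114), with library size alone (−0.11, adjusted p = 0.309) and without WT PF library 3 (−0.19, adjusted p = 0.0775), AMPKβ1-/- PF library 1 (−0.24, adjusted p = 0.0629) or library 2 (−0.24, adjusted p = 0.0574). Cmklr1 read 0.34 higher in AMPKβ1-/- cells (SE 0.21, adjusted p = 0.187), with no overlap between the genotypes, and 0.53 (adjusted p = 0.0376) with the correction. Ccr1 read 0.012 (SE 0.29, adjusted p = 0.977), and −1.20 (adjusted p = 0.00473) with the correction.

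**Figure D3:**
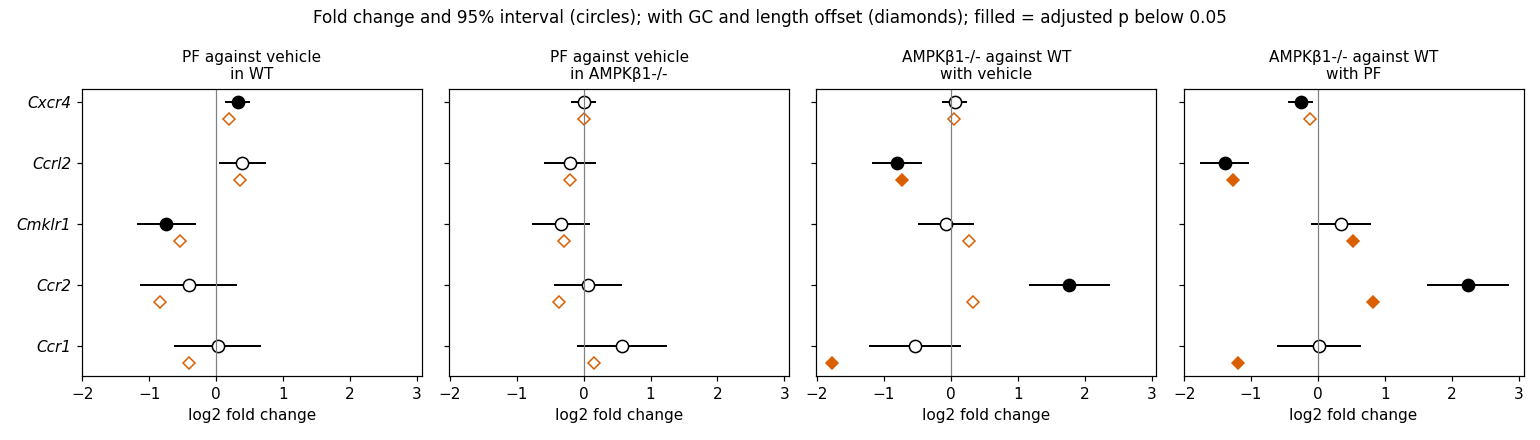
Log2 fold change of each receptor (circles) with its 95% interval (lines) in 4 comparisons, and the value corrected for GC content and length (diamonds). Filled symbols have an adjusted p below 0.05. Ccrl2 keeps its place between circle and diamond in both genotype comparisons, whereas Ccr2 moves from 1.77 to 0.34 with vehicle and Ccr1 from −0.54 to −1.78.

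The ligands of these receptors were read from a list of 14. Of these, 7 passed the filter, and 2 rose with PF in WT cells, where 6.99% of all tested genes rose. Both were CC chemokines. Ccl4 rose by 0.98 on the log2 scale (SE 0.16, adjusted p = 0.00187), with means of 16.1 ± 3.06 and 31.8 ± 4.85 CPM (SD, n = 3). Ccl3, a ligand of Ccr1, rose by 0.59 (SE 0.11, adjusted p = 0.00424), with means of 54.1 ± 4.41 and 81.5 ± 2.97 CPM. Corrected for GC content and length, Ccl4 kept its call (0.78, adjusted p = 0.00129) and Ccl3 did not (0.21, adjusted p = 0.493). In AMPKβ1-/- cells the log2 fold changes were −0.15 for Ccl4 and −0.074 for Ccl3 (adjusted p = 0.982 for both). The responses of the genotypes differed for Ccl4 (interaction 1.13, SE 0.22, adjusted p = 0.0417) and did not pass for Ccl3 (0.66, SE 0.15, adjusted p = 0.0702). In AMPKβ1-/- cells Ccl5 read 8.81 ± 0.179 with vehicle and 4.98 ± 0.733 CPM with PF (log2 fold change −0.82, SE 0.16, adjusted p = 0.0778). Its change in WT cells was −0.010 (adjusted p = 0.967). Ccl9, another ligand of Ccr1, was the most abundant of the list at 787 ± 110.2 CPM in WT vehicle cells and read −0.035 with PF. Ccl6 (73.2 ± 14.01 CPM in WT vehicle cells), Mif (92.5 ± 15.6 CPM), a cytokine that also binds Cxcr4, and Hmgb1 (39.9 ± 6.28 CPM), a nuclear protein that acts with Cxcl12 when released, were not called in that contrast either. The median log2 fold change of the 7 was 0.041, against 0.0048 over all tested genes.

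The best known ligands of the other members were close to or below the floor of 3 counts. Ccl2 averaged at most 0.550 CPM and Ccl7 0.271 CPM in a group, both ligands of Ccr2. Cxcl12, the ligand of Cxcr4, averaged at most 0.266 CPM, and Rarres2, which encodes chemerin, at most 0.299 CPM.

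Of 21 other chemokine and chemerin receptors listed, 8 had counts and 4 passed the filter, and Cx3cr1 alone was called with PF in WT cells. The count of 1 was 3 corrected for GC content and length and ranged from 1 to 3 over the alternatives. Cx3cr1 averaged 183 ± 2.97 and 88.2 ± 3.11 CPM without and with PF in WT cells, and 170 ± 5.45 and 164 ± 4.64 CPM in AMPKβ1-/- cells. Ccr3, the eotaxin receptor, averaged 2.39 ± 0.688 and 1.15 ± 0.242 CPM in WT and 4.48 ± 1.97 and 7.00 ± 2.46 CPM in AMPKβ1-/- cells. Its log2 fold change with PF in WT cells was −1.08 (SE 0.44, adjusted p = 0.0966). Cxcr3 averaged between 3.98 and 5.55 CPM. Ccr7, Ccr9, Ccr10 and Cxcr2 averaged at most 0.453 CPM in a group and were not tested.

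Several genes that carry the receptors' signal inside the cell fell with PF in WT cells. Of 20 listed G protein subunits and effectors, all tested, 1 rose and 8 fell, with a median log2 fold change of −0.15 against 0.0048 over all tested genes, of which 6.99% rose and 8.95% fell. The largest fall was in Pik3r6 (−0.70, SE 0.13, adjusted p = 0.00383), a regulatory subunit of phosphoinositide 3-kinase γ. Gnai2, the most abundant inhibitory Gα subunit of the list, fell from 2253 ± 104 to 1799 ± 165 CPM (−0.33, SE 0.077, adjusted p = 0.0149). Rac2 (−0.37, adjusted p = 0.00676) and its exchange factors Prex1 (−0.43, adjusted p = 0.00948) and Vav1 (−0.26, adjusted p = 0.0466) fell, as did the Gβ subunit Gnb2 (−0.30, adjusted p = 0.0473) and the phospholipases Plcb2 (−0.36, adjusted p = 0.0210) and Plcb3 (−0.43, adjusted p = 0.0216). Gng12, a Gγ subunit, rose (0.56, adjusted p = 0.0229). The calls of Vav1 and Gnb2, close to the threshold, were lost under 15 of the 22 alternatives each, those of Gnai2, Plcb2 and Plcb3 under 5, of Prex1 and Gng12 under 4 and of Rac2 under 1. The count of 9 was 5 corrected for GC content and length and ranged from 1 to 12 over the alternatives.

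Of 21 genes of receptor desensitization and traffic, 18 were tested, 3 rose and 5 fell in WT cells with PF. The median log2 fold change of the 18 was −0.14 against 0.0048 over all tested genes, of which 6.99% rose and 8.95% fell. The β-arrestins Arrb1 (394 ± 29.9 to 283 ± 5.07 CPM, log2 fold change −0.48, SE 0.076, adjusted p = 0.00187) and Arrb2 (512 ± 35.9 to 344 ± 24.6 CPM, −0.57, SE 0.090, adjusted p = 0.00182) fell and kept their calls under every alternative run. Grk2, a kinase of activated receptors, fell by 0.41 on the log2 scale (adjusted p = 0.00914), and Rgs14 (−0.33, adjusted p = 0.0424) and Cd74 (−0.29, adjusted p = 0.0405), a partner of Cxcr4 in the binding of Mif, also fell. Rgs1, which limits the Gi signal of chemokine receptors, rose from 5.00 ± 1.90 to 12.7 ± 3.63 CPM (1.33, SE 0.24, adjusted p = 0.00393). Rgs2 (0.42, adjusted p = 0.0218) and Stam (0.63, adjusted p = 0.0235), which acts in the sorting of internalized Cxcr4, rose as well. In AMPKβ1-/- cells no gene of either list was called, with medians of 0.0037 and 0.017. Rgs1 read higher with PF there too, at 8.46 ± 0.539 with vehicle and 12.6 ± 1.11 CPM with PF. Its log2 fold change was 0.57 (SE 0.22, unadjusted p = 0.0207, adjusted p = 0.801). Rgs18 moved more in AMPKβ1-/- cells, from 3.75 ± 0.466 to 7.28 ± 1.33 CPM (0.96, SE 0.28, unadjusted p = 0.00345, adjusted p = 0.364). In WT cells its log2 fold change was 1.16 (adjusted p = 0.0543). Grk3 also read higher with PF in AMPKβ1-/- cells (0.35, unadjusted p = 0.0368, adjusted p = 0.950). No gene of either list passed the interaction test, Arrb2 coming to −0.50 (SE 0.13, adjusted p = 0.0949) and Rgs1 to 0.76 (SE 0.33, adjusted p = 0.314), so a difference between genotypes was not shown for these genes. Of the other calls of this list, Rgs14 was lost under 15 of the 22 alternatives, Cd74 under 13, Rgs2 under 6, Stam under 5 and Grk2 under 2. The count of 8 was 4 corrected for GC content and length and ranged from 3 to 10.

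**Figure D4:**
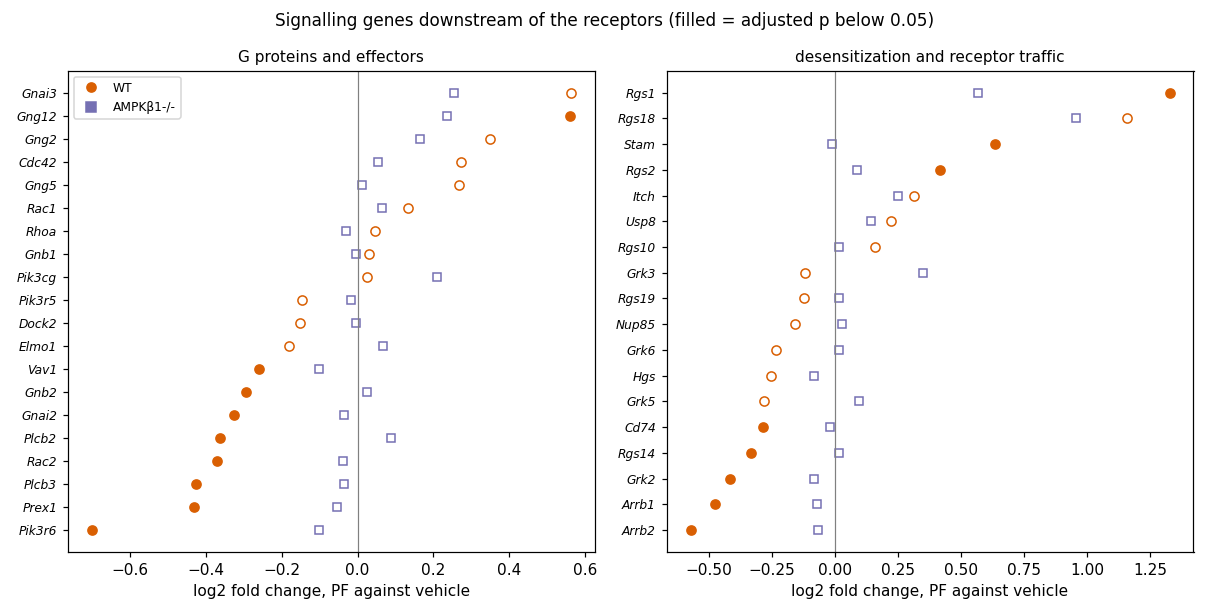
Log2 fold change with PF of the listed G proteins and effectors (left) and of the genes of desensitization and receptor traffic (right) in WT (circles) and AMPKβ1-/- cells (squares). Filled symbols have an adjusted p below 0.05, and all squares are open. Arrb1 and Arrb2 lie at the bottom and Rgs1 at the top of the right panel in WT cells.

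Macrophage markers moved as well in WT cells with PF, where 4 of 10 fell, against 8.95% of all genes, and none rose. The count of 4 ranged from 1 to 5 over the alternatives. The genes were Csf1r (−0.58), Cd14 (−0.43), Itgam (−0.39) and Spi1 (−0.39), with adjusted p between 0.00207 and 0.0163, and their part in the changes of the receptors was not tested. Kit, from the mast cell and basophil list, rose by 1.42 (adjusted p = 0.00506) from 1.29 ± 0.262 to 3.48 ± 0.860 CPM. Hdc, Gata2 and Prss34 of that list, all under the filter, averaged 0.695, 0.166 and 0.0639 CPM with vehicle in WT cells. With PF they averaged 0.678, 0.0256 and 0.140 CPM, so Hdc and Gata2 did not rise with Kit. Cpa3, Fcer1a, Ms4a2, Mcpt8, Cma1 and Tpsb2 had no row in the counts.

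The members did not share a single pattern over the 12 libraries. The pair most alike was Ccrl2 and Cxcr4 (Pearson r = 0.46 of log2 CPM), and the most opposed was Ccr2 and Ccrl2 (r = −0.94), followed by Cxcr4 and Cmklr1 (r = −0.83). These values describe 12 libraries that share group, depth and base composition. Around the group means the picture was another one. There r was −0.21 for Ccrl2 and Cxcr4, −0.39 for Ccr2 and Ccrl2 and −0.60 for Cxcr4 and Cmklr1, while the most alike pair was Ccr2 and Cxcr4 (r = 0.49) and the most opposed Ccr1 and Cmklr1 (r = −0.82).

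The genes most like each member by Pearson r of log2 CPM over the 12 libraries were then named, 3 for each. For Ccrl2 they were Fdps (r = 0.99), Rnf157 (r = 0.98) and Mvd (r = 0.97), of which Fdps and Mvd encode enzymes of the mevalonate pathway of sterol synthesis. Fdps averaged 133 ± 10.3 CPM in WT vehicle, 171 ± 22.1 in WT PF, 74.0 ± 5.69 in AMPKβ1-/- vehicle and 64.4 ± 3.79 in AMPKβ1-/- PF cells, the order of Ccrl2 over the 4 groups. For Ccr2 they were Slc8a1 (r = 0.99), Traf3 and Rnd3 (r = 0.98 for both). For Cxcr4 they were Cyp4v3 and Emp1 (r = 0.94 for both) and Fam241a (r = 0.93), and Emp1 averaged 190 ± 18.3 in WT vehicle and 329 ± 37.7 CPM in WT PF cells. For Cmklr1 they were Chd4 (r = 0.98), Sec16a and Numa1 (r = 0.97 for both), and for Ccr1 Toe1 and Fam136a (r = 0.85 for both) and Nhlrc1 (r = 0.84). The choice of genes depended on the measure: by Spearman's rho 0 of the 3 were shared for Ccr1, Ccr2 and Ccrl2 and 1 of 3 for Cxcr4 and Cmklr1. Around the group means, only Chd4 for Cmklr1 was named again.

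**Figure D5:**
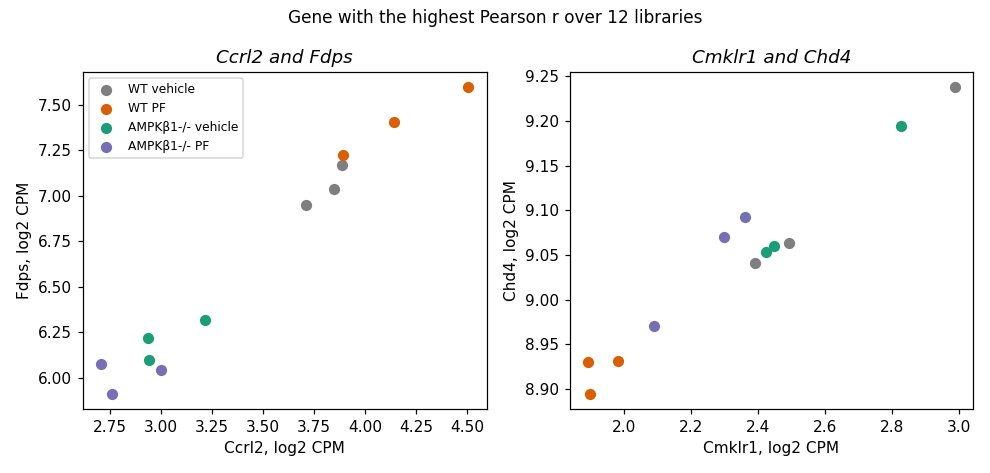
Log2 CPM of Ccrl2 against Fdps (left) and of Cmklr1 against Chd4 (right) in the 12 libraries, coloured by group. Ccrl2 and Fdps separate the genotypes, with all 6 AMPKβ1-/- libraries at the lower left, and Cmklr1 and Chd4 place the 3 WT PF libraries lowest.

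The nearest tested genes beside the members were read for comparison. With PF in WT cells none of the neighbours named here was called. Between genotypes with vehicle, 59.7% of all genes were called. The nearest tested genes to Cxcr4 were Dars, 170830 bases away, and Cd55, 1846733 bases away. Dars (1.07, adjusted p = 0.00108) and Cd55 (2.15, adjusted p = 0.000976) were higher in AMPKβ1-/- cells, while Cxcr4 was not called. Of the neighbours of Ccrl2, Als2cl read −0.21 (adjusted p = 0.203) and Lrrfip2 was higher (0.30, adjusted p = 0.0213), the opposite direction to Ccrl2. Of those of Cmklr1, 2900026A02Rik was lower (−0.61, adjusted p = 0.000188) and Ficd read −0.15 (adjusted p = 0.340). Ccr3, between Ccr1 and Ccr2, was higher (0.89, adjusted p = 0.0428), as was Fyco1 beside Ccr1 (0.53, adjusted p = 0.000945).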

How the data were processed

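RNA sequencing of 12 BMDM libraries was analysed. The authors used Trim Galore for trimming and Salmon for the quantification of transcripts, and the deposited values are estimated counts per gene, whole numbers without normalization. The genome build, the Salmon version and bias options and the low-count filter are not given in the sources used here. Each column was put in its group by its own name, and library numbers are names only.

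Counts were tested in R 4.3.3 with edgeR 4.0.16 (robust quasi-likelihood test, TMM, filterByExpr by group), in 1 fit of 4 group means to 12 libraries, with Benjamini-Hochberg adjustment over 10822 genes, and tested on simulated data first. CPM are normalized by TMM, log2 CPM used a prior count of 2, and SE, derived from F, are approximate. A floor of 3 counts covers counting error only. Alternatives were other scalings and filters, DESeq2 1.42.0, limma 3.58.1 (voom), the libraries of a contrast alone, a replicate block, each library left out, and an offset that removes a trend in GC content and length (splines with 5 degrees of freedom) fitted in each library, for which 99.6% of tested genes had values from GENCODE M21. Symbols matched this annotation directly for 12703 genes, through older symbols for 169 and not at all for 88.

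The members, gene lists and tests were chosen with earlier results of these data known, and the promoter motifs after the values of the members were seen. Named were all members, listed genes called with PF, ligands that passed the filter, other listed receptors, Prkab1, the 3 genes most like each member and the nearest tested neighbours. Ligands under the filter, monocyte markers, Itgax, Batf3, Rgs18, Grk3 and the mast cell and basophil markers other than Kit were named after their values were seen. 1 of the listed genes is not reported here.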

Additional observations from a re-analysis of the deposited data

How the results depend on the processing

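Over the alternatives, 504 values of the members in the 5 comparisons kept their direction and side of the threshold, 17 lost a call, 5 gained one and 15 reversed, none of the reversed values having been called before. In WT cells with PF, the 2 members called became 0 by the DEG threshold, 0 with the WT libraries alone and 0 corrected for GC content and length, and ranged from 0 to 2 when 1 library was left out. Calls over all genes moved too. They fell from 1725 of 10822 to 165 by the DEG threshold, to 419 of 10472 with the WT libraries alone and to 800 of 10822 with the correction. With 1 library left out, calls over all genes ranged from 346 to 3243, so the losses were not particular to the members. In the other comparisons the number of members called stayed within 1.5 times. The cause was not tested. The calls of members that were lost or gained are given in the report.

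With that correction, the log2 fold change of Ccr1 reversed to −0.41 with PF in WT cells and to −1.20 between genotypes with PF, that of Ccr2 to −0.36 with PF in AMPKβ1-/- cells, and that of Cmklr1 to 0.27 between genotypes with vehicle, where it was 0.14 with library size alone. Ccr3 reversed to −0.38 between genotypes with vehicle. With 1 library left out, ranges that held both signs were −0.27 to 0.25 for Ccr1 with PF in WT, −0.089 to 0.16 for Ccr2 and −0.060 to 0.070 for Cxcr4 with PF in AMPKβ1-/- cells, −0.22 to 0.14 for Cmklr1 and −0.0080 to 0.12 for Cxcr4 between genotypes with vehicle, and −0.086 to 0.14 for Ccr1 between genotypes with PF.

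Deviations of WT vehicle and WT PF libraries of the same number correlated at 0.32, −0.0063 and 0.12, so shared numbers were not taken to pair libraries. A fit with the replicate block called 2 members with PF in WT and changed no call of a member. Among the other genes named, the genotype difference of Ccr3 with vehicle lost its call under 9 alternatives, the block included (0.88, adjusted p = 0.0636), and Ccr3 gained a call with PF in WT under 2. Precision is limited by 3 libraries a group and, for Ccr1 and Ccr2 in WT, by counts of 12 to 39 per library.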
